A study of Mus musculus with 7 samples.

Results

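The olfactory receptor genes of the mouse were examined as they stand in the gene annotation deposited with a single-cell RNA sequencing series of intestinal stroma. They were taken as every gene record of the protein-coding type whose symbol is Olfr followed by a digit. This gave 1135 genes of 21700 protein-coding genes, or 5.23%. Neighbours on 1 chromosome were joined into a cluster where the gap between them was at most 1000000 bases, which gave 42 clusters of 2 or more genes. The series sorted cells positive for GFP from Rspo3-GFP transgenic mice of a C57Bl6 background aged 8 to 12 weeks, in which the reporter follows Rspondin 3, and prepared 10x Genomics 3' v3 libraries of their polyA RNA. Its design text adds that the cells lacked Epcam and CD45. The 7 samples comprised 2 replicates of untreated small intestine, 2 of an unirradiated small intestine control, 2 after irradiation of the mice with 12 Gy, also small intestine, and 1 untreated colon sample. Expression in these samples was not analysed here, so the values below describe gene models, and the labelled cell type could not be checked against markers. The annotation was counted whole, so shares and medians carry no sampling error, and no test was run, since genes of 1 family are not replicates.

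Olfactory receptors are G protein-coupled receptors through which sensory neurons of the nose detect odorants. Each such neuron is known to express 1 allele of 1 receptor gene, and the receptor acts through the G protein subunit encoded by Gnal, the adenylyl cyclase encoded by Adcy3 and a cyclic nucleotide-gated channel. The family grew by repeated local duplication, and its genes are known for an uninterrupted coding region that lies downstream of short non-coding exons. Class I receptors resemble those of fish, and class II receptors make up most of the repertoire of land vertebrates. Several receptors are also known outside the nose, among them Olfr78 in blood vessels and the carotid body.

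The commonest 12-base word in the upstream part of the receptor coding sequences was far more frequent in the family than elsewhere. It was picked from these same sequences by its count, so that excess follows in part from the choice. The 12-base word CCCATGTACTTC was found in 239 of the 1135 olfactory receptor coding sequences (21.1%) and in 7 of 20261 other coding sequences (0.0345%), which is 1.15% of all. Only the coding strand was searched. Its median position was base 172 of the coding sequence, and it was in frame in all 239. As background, this part of the sequence encodes the helix ahead of the third transmembrane helix. The commonest base at each of 30 positions from the start of the word was taken over the genes that hold it. The lines below give this consensus and then the in-frame stretch closest to it in 8 receptors known from functional work. They are shown so that the range of differences within the family can be read, and capitals mark the bases that differ from the consensus.
consensus at the CCCATGTACTTC word: cccatgtacttcttcctcagcaacctgtcc
Olfr160 (M72), chr9:37712077-37712106, minus strand: cccatgtacttcttcctcagTaacctgtcA
Olfr1507 (MOR28), chr14:52490753-52490782, minus strand: cccatgtaTttcttcctcagcaaTctgtcc
Olfr17 (P2), chr7:107097641-107097670, plus strand: ccTatgtacttcttcctcagAaacTtAtcc
Olfr73 (mOR-EG), chr2:88034934-88034963, minus strand: cccatgtacttcttTctcagcCacctCtcT
Olfr16 (MOR23), chr1:172956968-172956997, plus strand: cccatgtacttcttTctGagcaTGTtgGcA
Olfr78, chr7:102742804-102742833, minus strand: cccatgtacCtTttTctcTgcaTGctgGcA
Olfr558, chr7:102709438-102709467, plus strand: cccatgtaTAtcttTctTTgcaTGctTtcT
Olfr2 (I7), chr7:107001655-107001684, minus strand: cccatgtaTttTttcTtGGCTaaTAtgtcA
All are written from 5′ to 3′ on the coding strand in the GRCm38 build.

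Only stretches that start on a codon were compared with this consensus. Over the 1135 genes the closest such 30 bases differed from it at a median of 7 positions, with quartiles of 5 and 9, and a range of 0 to 15. At most 9 differences were found in 956 receptor genes (84.2%) and in 77 other genes (0.380%), or 4.83% of all. The median of the other genes was 14 differences. Among the receptors listed above, Olfr160 and Olfr1507 differed at 2 positions, while Olfr2 differed at 10. In Olfr544 the closest stretch stood elsewhere, at base 250 of the coding sequence, with 12 differences. Class I genes were farther from the consensus than class II genes, with a median of 10 against 6 differences. The word and the consensus were both taken from the receptor genes themselves, so these counts describe the family and support no further statement.

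Olfactory receptor genes stood on 18 chromosomes and were spread unevenly over them. Chromosome 2 held 295, which was 16.2% of its protein-coding genes. Chromosome 7 held 243 (12.2% of its protein-coding genes), chromosome 9 held 132 (11.1%) and chromosome 19 held 66 (9.32%). Chromosomes 11 and 10 held 82 and 70. Chromosome 5 held 1 gene and chromosome 3 held 2, while chromosomes 12, 18 and Y held none. The strands were nearly balanced, with 558 genes on the plus strand and 577 on the minus strand.

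Almost all of the genes lay in clusters. The 42 clusters held 1127 genes (99.3%), and 15 clusters of 20 genes or more held 933. The 5 largest held 585 genes (51.5%). The largest ran from Olfr987 to Olfr1274-ps on chromosome 2 (chr2:85330779-90403897, 5073 kb) and held 228 genes, 20.1% of the family. The next ran from Olfr543 to Olfr692 on chromosome 7 (chr7:102476579-105369355) and held 128 genes. The other three were Olfr160 to Olfr986 on chromosome 9 (chr9:37708964-40190134, 95 genes), Olfr693 to Olfr519 on chromosome 7 (chr7:106675005-108894420, 68 genes) and Olfr1417 to Olfr1505 on chromosome 19 (chr19:11826803-13921866, 66 genes). Density in the 15 large clusters ranged from 13.8 genes per Mb on chromosome 14 to 48.98 per Mb on chromosome 10. The widest gaps joined by the rule were 959.5 kb between Olfr750 and Olfr221 on chromosome 14 and 766.7 kb between Olfr418 and Olfr433 on chromosome 1. The narrowest that it kept apart were 1095.5 kb between Olfr1375 and Olfr1373 on chromosome 11 and 1194.4 kb between Olfr460 and Olfr459 on chromosome 6.

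**Figure D1:**
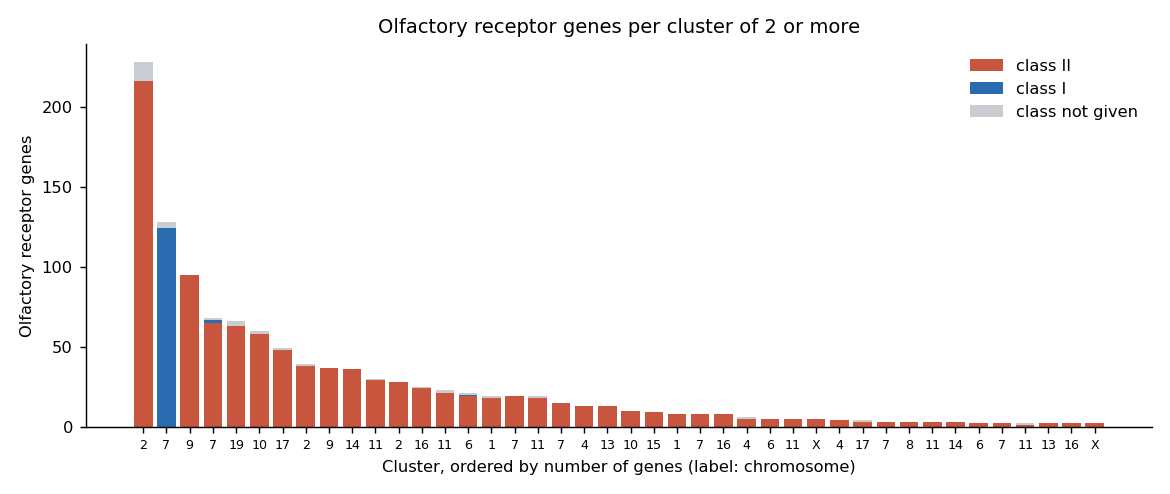
Number of olfactory receptor genes (y axis) in each of the 42 clusters of 2 or more genes, ordered by size and labelled by chromosome (x axis), with bars stacked by receptor class. The 228 genes of the largest cluster include no class I gene, and 124 of the 128 class I genes stand in the cluster of 128 genes on chromosome 7.

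Class I genes were confined to 1 cluster with 4 exceptions. A class was read from the family number in each gene's RefSeq synonyms, where families up to 42, including a number of 0, were taken as class I. Families from 100 up were taken as class II, and all other genes were given no class. This gave 128 class I genes, 972 class II genes and 35 without a class. The MOR names written above beside Olfr16 and Olfr1507 were not read as family numbers. By the rule Olfr16 had no class and Olfr1507 was of family 244, class II. The chromosome 7 cluster from Olfr543 to Olfr692 held 124 class I genes, no class II gene and 4 without a class. Outside it, Olfr503 and Olfr504 stood in the other large chromosome 7 cluster, and their closest relatives by coding sequence were Olfr658 (96.8% identity) and Olfr657 (95.6%) inside the class I cluster. The other exceptions were Olfr455 on chromosome 6 and Olfr718-ps1 on chromosome 5, whose closest relatives were Olfr522 (58.9%) and Olfr1349 (58.2%), both of class II. For those 2 genes the class rested on a family number of 0, and it was at odds with the closest sequence. Both identities lay below 60.1%, the 95th percentile of pairs from different clusters, so they are weak ground for a class.

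Some clusters held little but receptor genes, and others enclosed different gene families. Receptor genes made up 83.5% of the protein-coding genes inside cluster bounds, with 222 other protein-coding genes and 48 long non-coding RNA genes among them, and 18 clusters enclosed no other protein-coding gene. Members were taken by symbol, so the 222 include 6 genes, named below, that resemble a receptor gene in coding sequence. The 228-gene cluster enclosed 6 other protein-coding genes, among them Pramel6 and Pramel7 between Olfr1126 and Olfr153. Gm13757, Gm13762 and Gm13723, also enclosed there, resemble receptor genes. The class I cluster enclosed 27, including 12 Trim genes, 3 ubiquilin genes and the 5 beta-globin genes from Hbb-bt to Hbb-y (chr7:103812524-103853216), which lay between Olfr67 and Olfr66 with 77 receptor genes before and 51 after. Receptor genes were the minority in 2 of the clusters. In that from Olfr30 to Olfr223 on chromosome 11, 27 other protein-coding genes stood among 23 receptor genes, which made up 46.0%. In that from Olfr722 to Olfr1507 on chromosome 14, 53 other protein-coding genes left them at 40.4%. Those 53 included 15 genes of the ribonuclease A family. The chromosome 1 cluster from Olfr16 to Olfr220 enclosed 13 genes of the interferon-inducible Ifi200 family between Olfr418 and Olfr433. The chromosome 6 cluster enclosed 5 bitter taste receptor genes between Olfr459 and Olfr458, and the chromosome 17 cluster enclosed the major histocompatibility genes H2-M3 and H2-M2. On chromosome 14 the T cell receptor segment Trav1 stood inside the cluster, 13.6 kb from Olfr1510 and 14.1 kb from Olfr1509. The other 201 of the 202 T cell receptor segments of the chromosome stood between Olfr1507 and the isolated gene Olfr49, which lay 54.0 kb from Trac.

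The 8 genes outside clusters were Olfr1402 and Olfr266 on chromosome 3, Olfr267 on chromosome 4, Olfr718-ps1 on chromosome 5, Olfr370 and Olfr371 on chromosome 8, Olfr49 on chromosome 14 and Olfr19 on chromosome 16. Of these, only Olfr718-ps1 was alone on its chromosome. Their coding sequences were 58.2% to 73.8% identical to their closest relative in the family, Olfr718-ps1 being the most distant and Olfr19 the closest.

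Within clusters the genes followed each other closely and often on the same strand. The 1085 pairs of neighbours were separated by a median of 14.3 kb (quartiles 6.89 and 26.2 kb), close to the 13.1 kb between other protein-coding neighbours. They lay on the same strand in 751 pairs (69.2%), against 51.3% of 20418 pairs of other protein-coding neighbours. The 2 kinds of pair were not defined alike. Receptor pairs lay within clusters and passed over other protein-coding genes, and 1028 of the 1085 were directly adjacent. The other pairs were all directly adjacent, with no limit on the gap. Adjacency was counted among protein-coding genes alone, so long non-coding RNA genes were passed over in both kinds. The 272 genes named Olfr that GENCODE M21 gives as other types are absent from the annotation and could not count as neighbours. The longest run on 1 strand held 36 genes, from Olfr1214 to Olfr1254 on the minus strand of chromosome 2. The next longest held 21 genes, from Olfr893 to Olfr914 on the plus strand of chromosome 9. Symbol numbers followed the map, since they differed by 1 in 737 pairs (67.9%) and by at most 5 in 920 pairs (84.8%).

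Neighbours also had similar coding sequences. Each gene's closest relative had a median identity of 88.4% (quartiles 76.3% and 94.5%), and 510 genes (44.9%) had one of 90% or more. The closest relative stood in the same cluster for 1052 of 1127 clustered genes (93.3%). In the order of receptor genes alone, it was the adjacent gene for 445 (39.5%) and within 5 genes for 821 (72.8%). Median identity was 71.1% for adjacent genes, 63.1% with 4 genes between, 60.4% with 19 genes between and 56.4% for genes of different clusters. Adjacent genes on the same strand had a median of 75.8% (751 pairs), and those on opposite strands 65.8% (334 pairs). Class I and class II genes had a median identity of 53.1% to each other. The identity that unrelated sequences reach by this measure was not determined, so the lower values cannot be read as conserved bases. An identical coding sequence was found for 4 gene records. These were Olfr1506 with Olfr1565 and the 2 gene records that both carry the symbol Olfr290 (ENSMUSG00000070459 and ENSMUSG00000116179). The shorter Olfr290 record lies inside the longer and shares 948 exonic bases with it, so this identity is that of 1 stretch with itself.

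**Figure D2:**
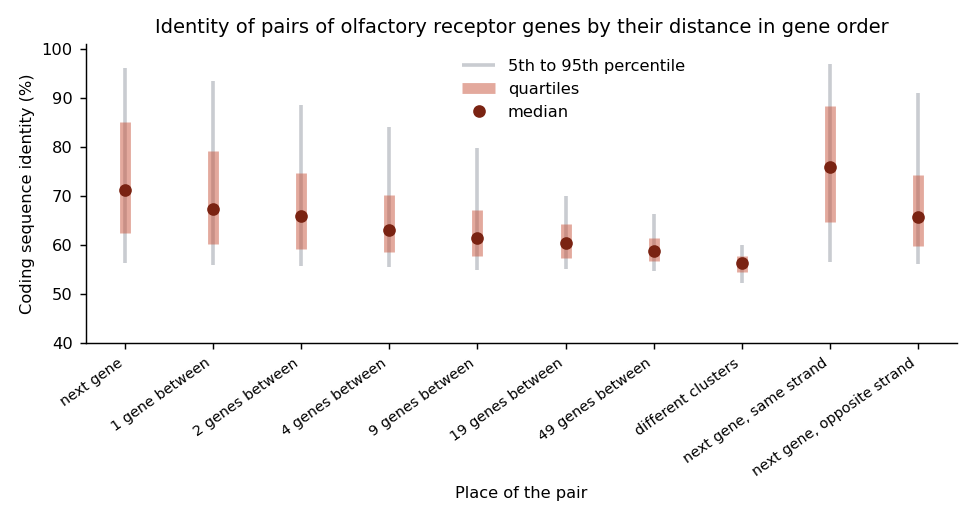
Coding sequence identity in percent (y axis) of pairs of olfactory receptor genes by their separation in gene order within a cluster, for different clusters, and for adjacent genes by strand (x axis); points are medians, thick bars quartiles and thin bars the 5th to 95th percentiles. The median falls from 71.1% for adjacent genes to 56.4% for genes of different clusters.

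The coding region was intact in a single exon in nearly every gene. On the main transcript, taken as the longest of coding type, 1103 genes (97.2%) had 1 coding exon, against 2417 of 20563 other protein-coding genes with a coding transcript (11.8%) and 16.2% of all 21698. The remaining 32 had 2 coding exons (2.82%, against 6.54% of all), and no gene had more. In 30 of these 32 the 5′ coding exon held fewer than 60 coding bases, with a median of 24. Small groups of neighbours shared its size. It held 9 coding bases in Olfr1289, Olfr1291-ps1 and Olfr1293-ps on chromosome 2, 5 in Olfr286, Olfr287 and Olfr288 on chromosome 15 and 40 in Olfr104-ps, Olfr105-ps and Olfr106-ps on chromosome 17. In Olfr180 the order was turned, with 793 coding bases in the 5′ exon and 131 in the next. For 18 of the 32 another transcript of the gene had 1 coding exon.

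Coding length varied little. The median was 942 bases (quartiles 933 and 951), against 1230 (726 and 2001) for other genes, and 1117 genes (98.4%) lay between 900 and 1000 bases, against 10.9% of all protein-coding genes. The commonest length was 939 bases, in 155 genes. The longest was 1041 bases, in Olfr1055, Olfr574 and Olfr1432, and the shortest complete one was 894 bases, in Olfr573-ps1. The model of Olfr809 was marked as incomplete, as were 1.08% of all protein-coding models, and held 446 coding bases. Class I genes had a median of 951 bases and class II genes of 939. The median GC content of the coding sequence was 43.8% (quartiles 41.5% and 47.3%), against 52.2% in other genes. All but the incomplete model began with ATG, and they ended with TAA in 466 genes, TGA in 426 and TAG in 242.

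Most genes carried a spliced leader before the coding exon. At least 1 exon that held only 5' UTR was found in 996 genes (87.8%), against 36.0% of other genes, 38.7% of all and 45.7% of the other genes with 1 coding exon. At least 2 such exons were found in 366 genes (32.2%, against 9.97% of all). Olfr1222 had the most, with 6. Only 117 genes (10.3%, against 6.35% of all) consisted of 1 exon. A non-coding exon after the stop codon was found in 3 genes, Olfr1226, Olfr1270 and Olfr214 (0.264%, against 4.41% of all). The median length of the longest intron was 2451 bases in genes with an intron, against 6432 in other genes. Olfr56 had the widest gene record, 156499 bases.

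UTRs were long at both ends where they were annotated. The median 3' UTR was 1681.5 bases over 1056 genes, against 913 over 19781 other genes and 669 over the 2051 other genes with 1 coding exon. The longest was 14400 bases in Olfr1307 on chromosome 2, and the shortest was 1 base in Olfr504. The median 5' UTR was 301.5 bases over 1064 genes, against 173 in other genes. It was longest in Olfr1226, at 3411 bases, and shortest in Olfr1337, at 3 bases. Class I genes had a shorter median 5' UTR than class II genes (218.5 against 306.5 bases) and a longer median 3' UTR (1858 against 1660 bases). Across the 15 large clusters the median 3' UTR, with genes without one counted as 0, ranged from 951 bases on chromosome 16 (Olfr172 to Olfr209) to 2408.5 bases on chromosome 2 (Olfr338 to Olfr368). The median 5' UTR, counted likewise, ranged from 153 bases on chromosome 9 (Olfr24 to Olfr18) to 459.5 bases on chromosome 10 (Olfr9 to Olfr827).

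**Figure D3:**
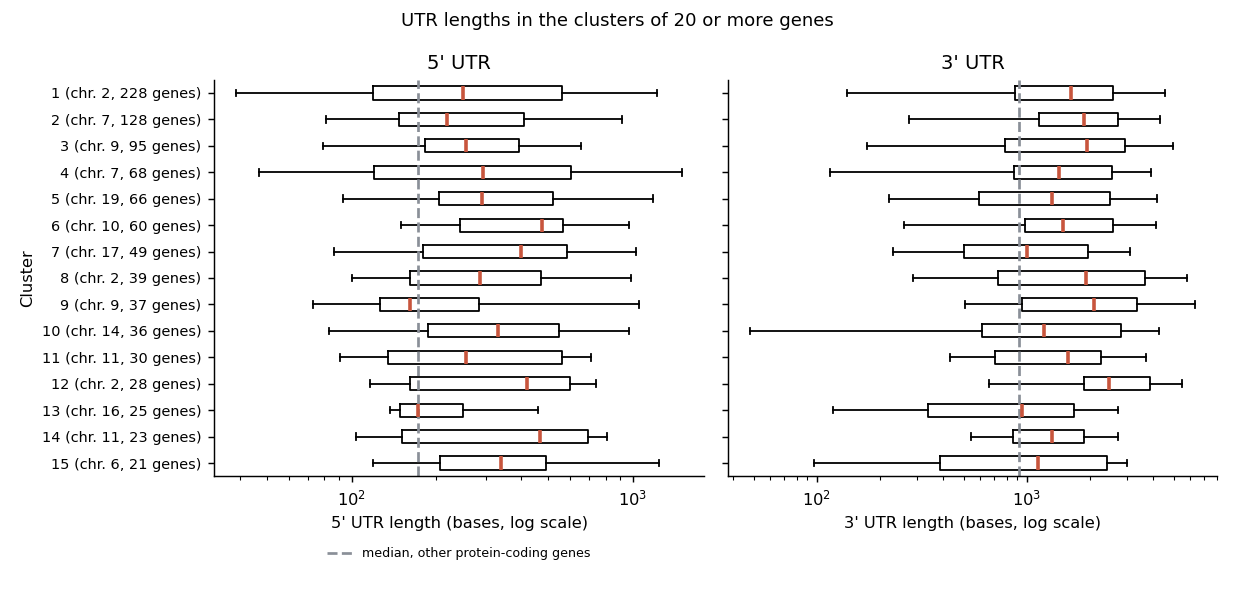
Length of the 5' UTR (left) and 3' UTR (right) in bases on log scales (x axes) for genes with such a UTR in the 15 clusters of 20 genes or more (y axis); boxes are quartiles, red lines medians and whiskers the 5th to 95th percentiles, and the dashed line is the median of other protein-coding genes. The 3' UTR medians lie above the 913 bases of other genes in all 15 clusters, and the 5' UTR medians above the 173 bases of other genes in 13 of the 15.

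A smaller set had no UTR at all. No 3' UTR was annotated for 79 genes (6.96%, against 3.97% of all), no 5' UTR for 71 (6.26%, against 5.18%) and neither for 68 (5.99%, against 3.23%). The 68 genes were spread over 19 clusters, with 16 in the 228-gene cluster and 12 in the class I cluster. Of them 55 had 1 transcript, and 1 carried the tag for a model supported in part by RNA-seq, which 1023 of the 1067 other receptor genes carried. For a 3' library, whose reads lie near transcript ends, the last 500 exonic bases are the relevant stretch. They held no coding base in 894 receptor genes (78.8%), against 63.7% of other genes and 64.5% of all, and were coding throughout in 79 (6.96%, against 2.87% of all). The use of these ends by reads of the series was not tested.

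The 9 receptors known from functional work all had 1 coding exon, at least 1 leader exon and a UTR at both ends. Olfr78 and Olfr558, nearby class I receptors known to respond to short-chain fatty acids, had 3' UTRs of 3528 and 1850 bases, 5' UTRs of 204 and 237 bases and 1 leader exon each. Olfr544, known to respond to azelaic acid, had a 3' UTR of 2083 bases. Olfr2 (I7), a receptor for octanal, had the longest 3' UTR of the 9, at 4616 bases, with 3 leader exons. Olfr16 (MOR23), also known from sperm, had the shortest, at 631 bases, after a 5' UTR of 1129 bases. Olfr17 (P2) had the longest 5' UTR, at 1324 bases. Olfr1507 (MOR28) had 5 transcripts with 4 different coding sequences, while the other 8 each had 1 coding sequence. Olfr151 (M71) was not analysed here.

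**Figure D4:**
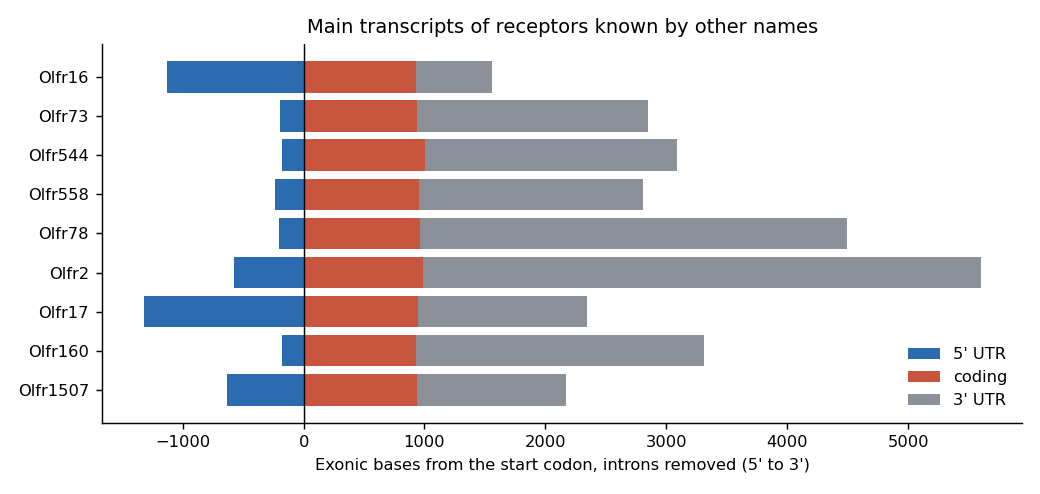
Exonic bases of the main transcript relative to the start codon with introns removed (x axis, 5' to 3') for 9 olfactory receptor genes (y axis); blue is 5' UTR, red coding and grey 3' UTR. Coding lengths lie between 930 and 1005 bases, while 3' UTRs run from 631 bases in Olfr16 to 4616 bases in Olfr2.

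Receptor genes often had several transcripts but few distinct coding sequences. At least 2 transcripts were annotated for 1006 genes (88.6%), against 80.2% of other genes, 80.7% of all and 41.5% of the other genes with 1 coding exon. At least 2 different coding sequences were found in 202 genes (17.8%), against 57.8% of other genes and 55.7% of all. Olfr1348 had the most transcripts, 10, with 7 different coding sequences. Automatic transcripts of Ensembl made up 28.0% of the family's 2926 transcripts, against 4.33% for other genes, and the rest came from the manual HAVANA annotation. A coding transcript of coding bases alone was found in 629 genes (55.4%, against 14.6% of other genes and 16.7% of all). Of the 509 genes with exactly 2 transcripts, 406 had 1 of each source, and in 300 the Ensembl transcript held coding bases alone. Counted over HAVANA transcripts alone, 600 receptor genes (52.9%) and 76.9% of other genes had 2 or more (75.6% of all), so the order of the groups depended on the source.

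The evidence recorded for the models differed from that of other genes. The tag for a model supported in part by RNA-seq was on 1024 receptor genes (90.2%), against 1.07% of other genes and 5.73% of all, and receptor genes were 82.3% of the 1244 genes that carried it. Transcript support level 1, in which every splice junction has at least 1 non-suspect mRNA, was given to 13 (1.15%, against 70.6% of all). Support level 5, in which no single transcript supports the model, was given to 783 (69.0%, against 15.8% of all). A consensus coding sequence (CCDS) tag was on 993 (87.5%, against 85.7% of all), close to the background. An upstream ATG tag, which marks a start codon ahead of the one used, was on 84 receptor genes (7.40%, against 0.725% of other genes and 1.07% of all). A single protein-coding RefSeq gene of the same symbol (GRCm38.p6) overlapped the locus of 1095 receptor genes and 19506 other genes. Of the receptor genes, 688 (62.8%) had 1 coding exon that the RefSeq gene spanned exactly, against 1.43% of other genes, 4.69% of all and 13.9% of the 2010 other genes with 1 coding exon. The RefSeq gene ended at the deposited stop codon in 853 (77.9%), against 2.67% of other genes and 6.67% of all. In 59 of the 688 RefSeq models that spanned the coding sequence alone the deposited model had no UTR either.

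**Figure D5:**
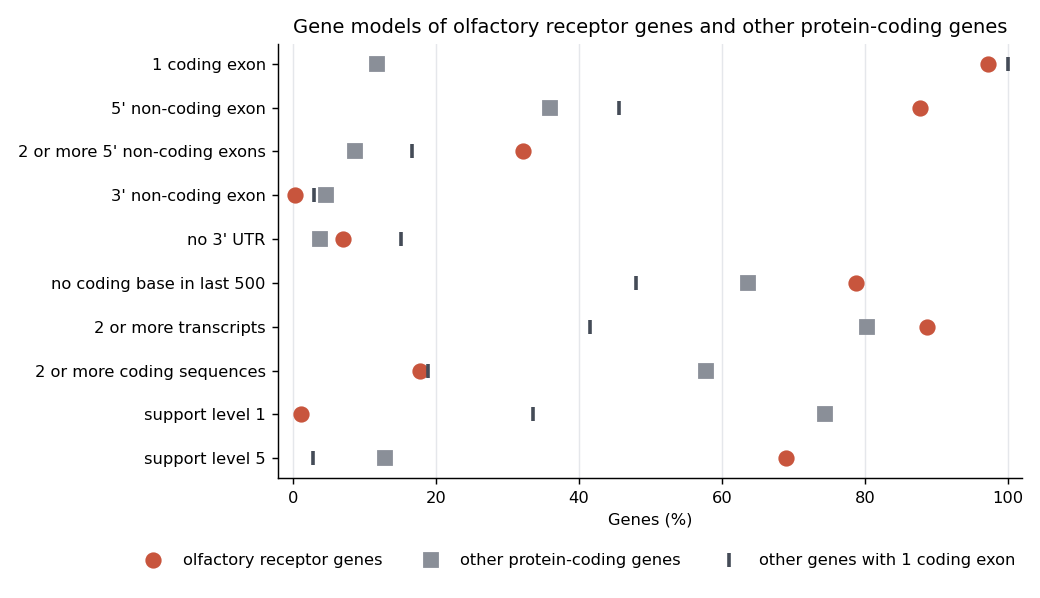
Share of genes in percent (x axis) with each feature of the gene model (y axis) for olfactory receptor genes (red circles), other protein-coding genes (grey squares) and the other genes with 1 coding exon (dark ticks). Receptor genes stand at 97.2% for 1 coding exon, 87.8% for a 5' non-coding exon and 17.8% for 2 or more coding sequences.

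Symbols with the ending ps, used for pseudogenes, were carried by 41 genes although all were of protein-coding type in this annotation. They had 2 coding exons in 12 cases (29.3%), against 20 of the 1094 other receptor genes (1.83%). A CCDS tag was on 6 (14.6%), against 987 of the 1094 (90.2%). Their share without a 3' UTR, 7.32%, was close to the 6.95% of the others.

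Receptor models rarely shared exons with other genes. The exons of each main transcript were compared with those of all transcripts of other genes. An overlap on the same strand was found for 8 receptor genes (0.705%), against 2.27% of other genes and 2.18% of all. A partner was counted only where its own main transcript overlapped, so Olfr78, Olfr115 and Olfr139, named below as partners, were not counted. An overlap on the opposite strand was found for 8 (0.705%), against 19.6% of other genes and 18.6% of all. The largest same-strand overlaps were 948 bases between the 2 records named Olfr290, 926 bases between Olfr560 and Olfr78 and 304 bases between Olfr116 and Olfr115. The others were 93 bases between Olfr56 and the interferon-induced GTPase gene Ifi47, 67 bases between Olfr399 and Olfr139 and 40 bases between Olfr1013 and Olfr1014. Restricted to the last 500 exonic bases, 2 receptor genes overlapped another gene on the same strand, against 0.963% of all genes. These were 1 of the Olfr290 records, over all 500 bases, and Olfr560, over 53 bases. On the opposite strand the last 500 bases of 4 receptor genes overlapped another gene, against 7.89% of all. Words of 90 bases from the last 500 exonic bases were also sought in the transcripts of genes of the deposited annotation elsewhere in the genome. The 272 genes named Olfr that GENCODE M21 gives as other types are absent from that annotation and were not searched. Of 1134 receptor genes, 108 (9.52%) shared any word, against 8.63% of 20243 other genes and 8.68% of all, so this share was near the background. At least 50% of the words were shared by 8 receptor genes (0.705%), against 4.51% of other genes and 4.31% of all. Every word of Olfr1565 was shared, with Olfr1506 as partner, and so was every word of Olfr247, with Gm10310 as partner. In the other direction Olfr1506 shared 62.3% of its words. The share with any such word was 19 of 79 genes without a 3' UTR and 89 of 1055 with one.

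Of 1088 other genes with at most 2 coding exons and a coding sequence of 800 to 1200 bases, 6 were at least 60% identical to a receptor gene, and all 6 lay inside receptor clusters. Gm10310 was identical to Olfr247, Gm13757 was 95.2% identical to Olfr1181 and 4930516K23Rik was 90.3% identical to Olfr644. Gm13762 reached 83.3% with Olfr1223, Gm13723 79.2% with Olfr1099 and OR5BS1P 63.5% with Olfr283. They were not counted as members, since the rule used the symbol.

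Other chemosensory receptor families shared some of these features. All 209 Vmn1r genes, which encode vomeronasal receptors, had 1 coding exon, 64.6% had a 5' non-coding exon and 27.3% had no 3' UTR. At least 2 such exons were found in 33.5% of Vmn1r genes, near the 32.2% of olfactory receptor genes, and 23.9% had 2 or more coding sequences. Their median coding length was 924 bases, and those with a UTR had medians of 575 bases (5') and 2195 bases (3'). None of the 122 Vmn2r genes had 1 coding exon, but 80.3% had no coding base in the last 500, and the median 3' UTR of those that had one was 3392.5 bases. The 15 Taar genes encode the trace amine-associated receptors. Only 1 of them had a 5' UTR, only 1 a 3' UTR and only 1 an intron. All 35 Tas2r bitter taste receptor genes had 1 coding exon and no 5' non-coding exon, and 21 of them had no 3' UTR. The 7 Fpr genes all had 1 coding exon, and 3 had a 5' non-coding exon.

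A list of 20 genes that act with the receptors covered signal transduction (Gnal, Adcy3, Cnga2, Cnga4, Cngb1, Ano2, Ric8b, Omp), receptor transport (Rtp1, Rtp2, Reep1) and receptor gene choice (Lhx2, Ldb1, Emx2, Ebf1 to Ebf4, Atf5, Kdm1a). All 20 were found, with a median of 10.5 coding exons, against 7 in other protein-coding genes. Only Omp, which encodes the olfactory marker protein, had 1 coding exon. None lay inside a cluster, where only 222 (1.08%) of the 20565 other protein-coding genes lay. Cnga4, a subunit of the cyclic nucleotide-gated channel, lay 35.2 kb from the class I cluster and was the only one within 1000000 bases of any cluster. Lhx2, which encodes a factor needed for receptor gene choice, lay 1006.5 kb from the cluster of 28 genes on chromosome 2. Gnal and Adcy3 lay on chromosomes 18 and 12, which held no receptor gene.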

How the data were processed

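The single deposited file was a gene annotation, per the file headers GENCODE M23 (Ensembl 98) for GRCm38, with 5 records of source "hand" added by the authors for an EGFP contig. Its values are start and end coordinates in bases. The submitters' processing notes list the builds mm10 and GRCm38, with Seurat 4.0.3, R 4.1.0 and Cell Ranger 6.0.1 as tools. Read assignment and cell filters are not given in the sources used here, and depth per sample is not analysed here.

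The main transcript was the longest transcript of coding type, with ties resolved by coding length and then identifier. 2 protein-coding genes without one were left out of shares and medians. UTRs were the exonic bases before the start and after the stop codon, and UTR medians were taken over genes with a UTR. Exon overlaps were computed with bedtools 2.31.1. Coding sequences came from GENCODE M21 transcripts of the same build with the same identifier, version and length. Identity was 100 × (1 − edit distance / longer length), by edlib 1.3.9.post1. Coding sequence replaced the planned protein comparison. One further stretch of the coding sequence is not reported here. Python 3.11.15, NumPy 2.4.6 and pandas 2.3.3 were used. The functions were tested on simulated data and recovered 3000 of 3000 gene models and 200 of 200 clusters.

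The members, lists and named genes were chosen with earlier results of these data known. Named genes were the ends of the 5 largest clusters, extremes of length, exons and transcripts, genes alone, overlapping pairs, receptors with functional names and the signalling list. Genes named beside them for gaps, enclosed families, strand runs, shared 5′ coding exon sizes and closest relatives were chosen after their values were seen. Other transcript choices, gaps, windows, sources and backgrounds were tried.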

Additional observations from a re-analysis of the deposited data

How the results depend on the processing

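Of 47 alternatives for the receptor genes, their clusters and their backgrounds, 34 stayed within the 95% interval of the reported share or median, or within 1.5 times the reported count, and 13 did not. The interval served only as a yardstick for the size of a shift, since the annotation was counted whole. With the transcript of the best APPRIS principal tag, 98.1% had 1 coding exon, 11.2% no 3' UTR and 82.6% a 5' non-coding exon. With the longest coding sequence, 13.0% had no 3' UTR and 80.4% a 5' non-coding exon. With absent UTRs counted as 0 bases, the medians were 1546 bases (3') and 270 bases (5'). Windows of 300 and 1000 bases held no coding base in 84.3% and 64.3%. With HAVANA transcripts only, 52.9% had 2 or more transcripts against 78.0% of other genes, both over genes with a coding HAVANA transcript, which turns the order of the groups. Against other genes with 1 coding exon, the background was 669 bases for the median 3' UTR and 41.5% for 2 or more transcripts. With a gap of 2000000 bases, 5 genes stood alone. The largest cluster kept 228 genes at gaps of 250000, 500000 and 2000000 bases, and the number of clusters ranged from 38 to 47. Taking any gene type changed nothing, because every gene named Olfr in the file was of protein-coding type. In GENCODE M21, 272 further genes with such symbols were of other types, and they were not analysed here. No paired analysis was possible because the results come from gene models and not from samples. The annotation limits every value: an absent UTR may be one that was not annotated, and length in a model is not use in a cell.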

Other observations

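Of the 35 receptor genes without a class, 25 had a class II gene as closest relative and 4 a class I gene. The remaining genes were closest to another gene without a class.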
